A study of Mus musculus with 5 samples.

Results

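The TNF receptor superfamily genes described here were taken with the Runx3 and H3K4me1 peaks around them in natural killer cells (NKC) activated by IL-2. The 9 genes were Tnfrsf9 (CD137), Tnfrsf4 (OX40), Tnfrsf18 (GITR), Cd27, Tnfrsf14 (HVEM), Tnfrsf1b (TNFR2), Tnfrsf1a (TNFR1), Tnfrsf25 (DR3) and Fas (CD95). Each was taken as its GENCODE M1 gene on mm9 with 20 kb to either side, and every peak that touched this window by 1 bp or more was counted. The windows held 17 of the 11676 Runx3 peaks and 60 of the 34204 H3K4me1 peaks of the lists.

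ChIP-seq was performed on NKC of ICR mice, taken from the spleen by negative selection and grown for 7 days in 1000 units/ml of human recombinant IL-2. In their general NKC protocol the authors also describe a FACS sort for DX5+ cells after the selection. The labels give neither age nor genotype of the mice and describe the cultured cells as all NKp46+, and all libraries come from this 1 condition, so no resting or Runx3-deficient cells enter the comparisons. Runx3 was immunoprecipitated in 2 libraries with a home-made polyclonal antibody and H3K4me1, a histone mark found at enhancers, in 1 library, with 2 libraries of non-immune rabbit serum (NIS) as control. The authors called peaks with MACS against NIS, for Runx3 on the joined reads, and the lists give positions but no height, so no value below has a replicate error and no difference between genes was tested.

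As a check of the cell type, all 6 NK marker genes (Ncr1, Klrb1c, Itga2, Eomes, Tbx21 and Il2rb) held Runx3 and H3K4me1 peaks, beside 41.1% and 51.1% of all protein-coding genes. Their H3K4me1 peaks numbered 2, at Ncr1 and Eomes, to 18, at Il2rb, with a median of 9.5. Of 9 markers of B, T and myeloid cells, 5 (55.6%) held Runx3 and H3K4me1 peaks, shares not below those of all genes, with 0 to 5 H3K4me1 peaks and a median of 2. Cd79a, Cd3e and Cd4 thus held 4 H3K4me1 peaks each, more than Ncr1 and Eomes, whereas Ms4a1, Cd8a, Lyz2 and Siglech held neither kind of peak. The part of other cells in the member peaks was not tested.

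Receptors of the TNF superfamily are membrane proteins that bind trimeric ligands, many of them displayed on other cells. Receptors such as CD137, OX40, GITR, CD27, HVEM and TNFR2 recruit TRAF adaptors, which activate NF-kappaB and MAP kinases and costimulate lymphocytes, whereas TNFR1, DR3 and Fas carry a cytoplasmic death domain and can also signal through TRADD or FADD. RUNX factors bind DNA as a heterodimer with Cbfb, and an enhancer in use often shows H3K4me1 on the nucleosomes beside the bound factor.

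Sequences from the Runx3 peaks of these genes are given first, as 200 bp of mm9 in the direction of each gene. They come from the peak nearest to the TSS of each member, and for Tnfrsf9 and Tnfrsf1b, with their many peaks, from the next nearest and the widest too. For the widest peaks the stretch with the most RUNX motifs is shown and for the others that around the RUNX motif nearest to the peak centre. Distances from the TSS are those of the peak centre, which the stretches of the 2 widest peaks do not contain. Since stretches were chosen by their motifs, they do not show which bases of a peak were bound. Capitals mark RUNX motifs, which are TGTGGT, its close relative TGTGGC, and with a CpG the letters TGCGGT or in the last variant TGCGGC, on either strand. Capitals also mark AP-1 motifs, which read TGACTCA on one strand and TGAGTCA on the other. The promoter peak of Tnfrsf9 is left out, since its RUNX motif lies in annotated untranslated sequence.
Tnfrsf9 intron, 2946 bp downstream of the TSS (chr4:150291540-150291739, plus strand): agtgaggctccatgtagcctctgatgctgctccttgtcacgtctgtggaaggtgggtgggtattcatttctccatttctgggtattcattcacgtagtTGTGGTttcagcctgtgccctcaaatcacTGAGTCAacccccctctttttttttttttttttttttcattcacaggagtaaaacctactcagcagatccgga
Tnfrsf9 widest peak, 10214 bp downstream (chr4:150298463-150298662, plus strand): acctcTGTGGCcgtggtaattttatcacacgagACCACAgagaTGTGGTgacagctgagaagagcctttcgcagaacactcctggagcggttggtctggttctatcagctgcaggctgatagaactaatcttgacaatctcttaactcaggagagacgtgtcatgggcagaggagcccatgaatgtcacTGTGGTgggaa
Tnfrsf1b, 3266 bp upstream (chr4:144839976-144840175, minus strand): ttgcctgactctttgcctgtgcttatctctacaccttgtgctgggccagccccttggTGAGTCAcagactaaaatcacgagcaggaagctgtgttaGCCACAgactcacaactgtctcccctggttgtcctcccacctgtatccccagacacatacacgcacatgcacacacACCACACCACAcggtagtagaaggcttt
Tnfrsf1b intron, 5993 bp downstream (chr4:144830661-144830860, minus strand): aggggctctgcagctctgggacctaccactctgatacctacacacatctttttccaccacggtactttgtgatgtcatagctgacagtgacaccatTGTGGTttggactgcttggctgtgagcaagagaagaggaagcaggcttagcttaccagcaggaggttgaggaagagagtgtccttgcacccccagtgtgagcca
Tnfrsf1b widest peak, 24985 bp downstream (chr4:144811441-144811640, minus strand): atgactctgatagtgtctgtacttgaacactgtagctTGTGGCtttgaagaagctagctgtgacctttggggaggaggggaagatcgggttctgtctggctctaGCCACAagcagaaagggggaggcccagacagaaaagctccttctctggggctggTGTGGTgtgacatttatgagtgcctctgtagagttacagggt
Cd27, 4737 bp upstream (chr6:125191662-125191861, minus strand): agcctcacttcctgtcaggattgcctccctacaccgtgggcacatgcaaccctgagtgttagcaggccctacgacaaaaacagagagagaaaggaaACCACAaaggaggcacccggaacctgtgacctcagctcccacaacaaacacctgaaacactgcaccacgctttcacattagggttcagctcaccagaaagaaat
Tnfrsf25, 18824 bp downstream (chr4:151508793-151508992, plus strand): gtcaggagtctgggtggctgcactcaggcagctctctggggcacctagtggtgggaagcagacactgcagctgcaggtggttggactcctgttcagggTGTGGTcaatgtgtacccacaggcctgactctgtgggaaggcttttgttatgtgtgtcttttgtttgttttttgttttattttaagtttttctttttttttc
Fas intron, 16371 bp downstream (chr19:34381369-34381568, plus strand): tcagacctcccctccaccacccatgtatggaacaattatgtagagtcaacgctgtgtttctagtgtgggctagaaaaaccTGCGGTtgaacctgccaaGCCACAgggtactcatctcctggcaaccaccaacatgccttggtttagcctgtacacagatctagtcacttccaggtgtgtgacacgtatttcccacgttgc

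Runx3 peaks were unevenly spread over the family. Tnfrsf9 held 7, Tnfrsf1b 6, Cd27 2 and Tnfrsf25 and Fas 1 each, while Tnfrsf4, Tnfrsf18, Tnfrsf14 and Tnfrsf1a held none. Thus 5 of 9 members (55.6%) had a Runx3 peak, beside 41.1% of 22350 protein-coding genes, and 13 of the 17 peaks lay at Tnfrsf9 and Tnfrsf1b. Of all protein-coding genes, 0.729% had 6 or more Runx3 peaks. Per 10 kb of window, the number of Runx3 peaks was 0.978 at Tnfrsf9 and 0.817 at Tnfrsf1b, values reached by 0.277% and 0.720% of genes. The density was 0.451 at Cd27, 0.226 at Tnfrsf25 and 0.130 at Fas.

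H3K4me1 was more widely present. Tnfrsf1b held 20 H3K4me1 peaks, Tnfrsf9 16, Cd27 8, Tnfrsf1a 5, Tnfrsf4, Tnfrsf18 and Tnfrsf14 4 each and Tnfrsf25 3, and Fas held none. Hence 8 of 9 members (88.9%) had an H3K4me1 peak, beside 51.1% of protein-coding genes, and all 8 had at least 3, as did 27.7% of genes. The median was 4 H3K4me1 peaks per member and 1 per protein-coding gene. These counts depend on the flanks. With 5 kb in place of 20 kb, Tnfrsf14 and Tnfrsf25 held no H3K4me1 peak and Tnfrsf4 held 1. No H3K4me1 share of all genes is given for 5 kb. The number of peaks depends on how MACS splits a marked region, but the share of the window covered by H3K4me1 gave a similar order. It was 32.4% at Tnfrsf1b, 18.2% at Cd27, 14.6% at Tnfrsf9, 13.6% at both Tnfrsf4 and Tnfrsf18, 11.9% at Tnfrsf1a, 5.88% at Tnfrsf14 and 5.59% at Tnfrsf25. In 6 of the 9 members it lay above 8.22%, the 90th percentile of all protein-coding genes. Tnfrsf4 and Tnfrsf18, which count as separate members here, share the same 4 H3K4me1 peaks.

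**Figure D1:**
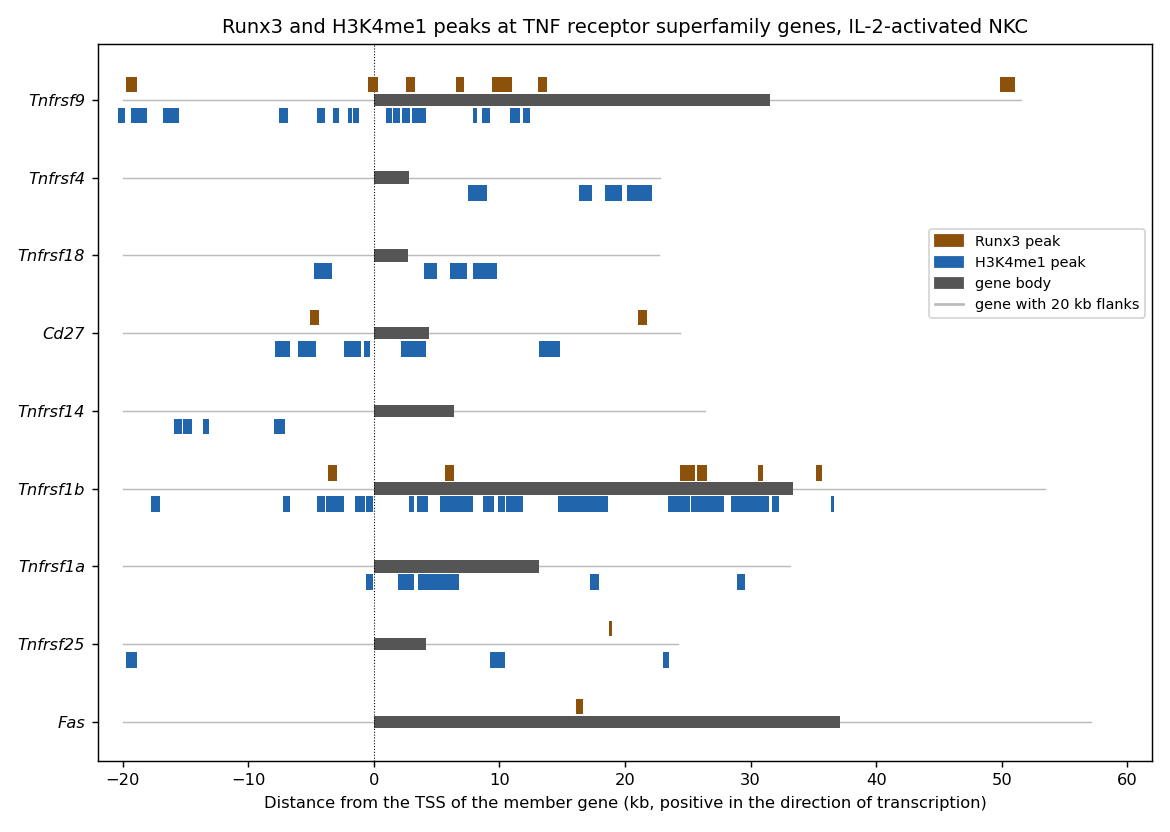
Runx3 peaks (brown, above the line) and H3K4me1 peaks (blue, below it) in each member gene and its 20 kb flanks, drawn against the distance in kb from the TSS. Runx3 peaks gather at Tnfrsf9 (7) and Tnfrsf1b (6), 4 members show H3K4me1 peaks only, and Fas shows 1 Runx3 peak and no H3K4me1 peak.

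**Figure D2:**
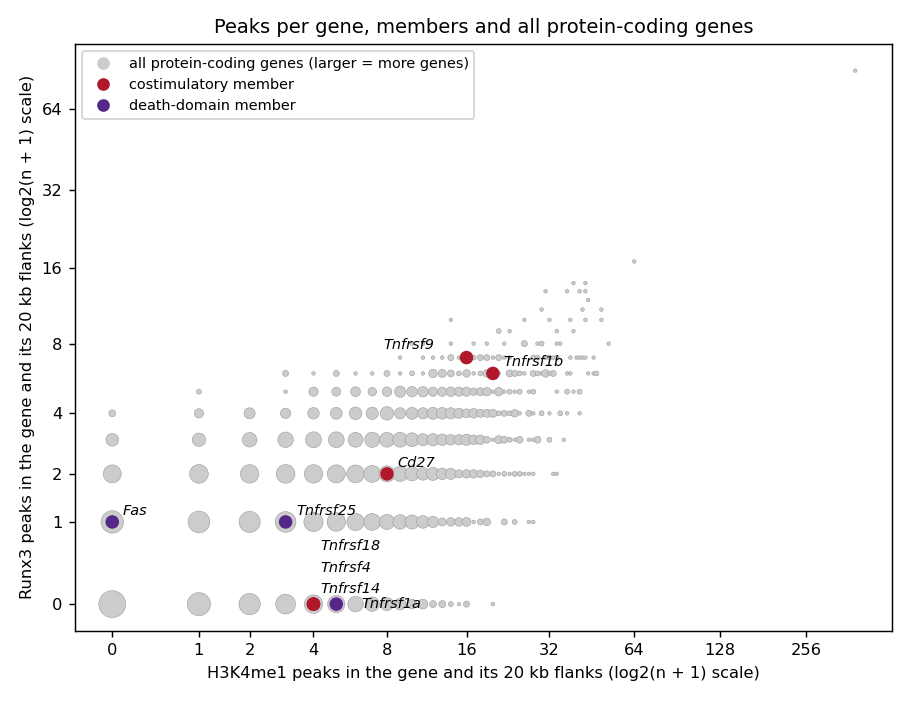
Number of H3K4me1 peaks (x axis) and Runx3 peaks (y axis) in the gene and its 20 kb flanks, on log2(n + 1) scales, for all 22350 protein-coding genes (grey, larger circles for more genes) and the members (red, costimulatory; purple, death domain). Tnfrsf9 and Tnfrsf1b lie among the few genes with 6 or more Runx3 peaks, and Tnfrsf4, Tnfrsf18 and Tnfrsf14 share 1 point at 4 H3K4me1 peaks and 0 Runx3 peaks.

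Tnfrsf9 encodes CD137, a costimulatory receptor induced on activated T cells and NKC. Its ENSMUSG00000028965 gene lies on the plus strand of chromosome 4 from 150288671 to 150320211. The Runx3 peaks were centred 19286 and 66 bp upstream of the TSS, at 2946, 6863, 10214 and 13407 bp downstream of it inside the gene, and at 50480 bp, beyond its end. The centres at 2946, 6863 and 10214 bp lay in introns and the one at 13407 bp in an annotated exon. The peak at the TSS was centred 59 bp from the TSS of the divergent gene Park7, which is 125 bp from that of Tnfrsf9, so that promoter binding cannot be assigned to either gene from position. Of the 7 peaks, the 4 centred inside the gene had the TSS of Tnfrsf9 as the nearest protein-coding TSS.

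At Tnfrsf9, as in the whole Runx3 list, most Runx3 centres lay outside the H3K4me1 peaks. Of the 7 Runx3 peaks, 3 overlapped H3K4me1 and 1 had its centre inside an H3K4me1 peak, beside 28.2% of all Runx3 peaks with such a centre. The peak with the covered centre was that 19286 bp upstream, which overlapped H3K4me1 by 450 of its 858 bp. The promoter peak stood in a stretch of 2143 bp without H3K4me1, with H3K4me1 peaks beginning 746 bp away on its upstream side and 668 bp away on its downstream side. Of all Runx3 peaks, 3.64% lay in such a position, without overlap and with H3K4me1 within 2 kb on both sides. The peak at 2946 bp overlapped H3K4me1 peaks on both of its sides by 487 bp in all, of its 715 bp, and its centre fell between them. The widest peak, of 1632 bp, a width reached by 0.617% of Runx3 peaks, overlapped H3K4me1 by 178 bp at its downstream edge. The peaks at 6863 and 13407 bp were separated from the nearest H3K4me1 peak by 724 and 617 bp, and the one beyond the end of the gene by 37438 bp. The 8 H3K4me1 peaks inside the gene were centred 1189 to 12142 bp from the TSS, and the 8 upstream peaks had the TSS of Park7 as the nearest one.

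Tnfrsf1b encodes TNFR2, which binds TNF and lymphotoxin alpha and signals through TRAF2 without a death domain. The gene, ENSMUSG00000028599, lies on the minus strand of chromosome 4 from 144803366 to 144836773. Its Runx3 peaks were centred 3266 bp upstream of the TSS, at 5993, 24985, 26141 and 30791 bp inside the gene, and at 35468 bp, past its end. The centres at 5993, 24985 and 26141 bp were in introns and that at 30791 bp in an annotated exon. The 3 centres farthest from the TSS of Tnfrsf1b were closer to that of Vps13d, at 16407 to 25734 bp. No Runx3 peak was centred within 1 kb of the Tnfrsf1b TSS.

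In contrast to Tnfrsf9, the Runx3 peaks of Tnfrsf1b mostly lay within H3K4me1. Of 6 peaks, 5 overlapped H3K4me1 and the same 5 had their centre inside an H3K4me1 peak. Of all Runx3 peaks, 48.4% overlapped H3K4me1 and 28.2% had such a centre. Among those centred more than 1 kb from a protein-coding TSS, as all 6 of Tnfrsf1b were, the shares were 57.0% and 33.8%. At Tnfrsf1b 4 peaks were wholly inside an H3K4me1 peak, as were 9.28% of all Runx3 peaks. The overlaps covered 706 of 706 bp at the upstream peak, 718 of 718 bp at the peak at 5993 bp, 1074 of 1150 bp at 24985 bp, 752 of 752 bp at 26141 bp and 386 of 386 bp at 30791 bp. The remaining peak, past the end of the gene, was 723 bp from H3K4me1. H3K4me1 peaks were broader here than at Tnfrsf9, with a median width of 891 bp (range 245 to 2680 bp) and 593.5 bp (335 to 1252 bp), respectively. The widest, 2645, 2658 and 2680 bp, were each in the widest 1.18% of the H3K4me1 list, and the first pair of them carried Runx3 peaks. An H3K4me1 peak was centred 346 bp upstream of the TSS of Tnfrsf1b. The difference in nesting between the genes rests on 7 and 6 peaks of 1 pooled list and was not tested.

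Cd27 encodes a costimulatory receptor for CD70 and marks less mature NKC. The gene, ENSMUSG00000030336, lies on the minus strand of chromosome 6 from 125182640 to 125187028, inside the annotated span of Vamp1. The nearer of its Runx3 peaks was centred 4737 bp upstream of the TSS, with its centre inside an H3K4me1 peak and an overlap of 544 of its 765 bp. The other, 21415 bp downstream, was centred 44 bp from the TSS of Vamp1 and did not overlap H3K4me1, which began 6247 bp away. By position the latter is a promoter peak of Vamp1. Of the 8 H3K4me1 peaks, 6 lay upstream of Cd27, the nearest centred 544 and 1703 bp from its TSS. A peak of 1988 bp lay inside the gene, centred in an intron 3138 bp from the TSS and closer to the TSS of Tapbpl, and a peak of 1617 bp lay past its end, at 13986 bp.

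Fas and Tnfrsf25 each held 1 Runx3 peak, narrower than the median of the list and apart from H3K4me1. Fas, the death receptor for FasL, lies on the plus strand of chromosome 19 from 34365149 to 34402260 (ENSMUSG00000024778). Its Runx3 peak of 576 bp was centred in an intron, 16371 bp from the TSS, and the nearest H3K4me1 peak was 166958 bp away. Runx3 peaks with no H3K4me1 peak in the window were found at 7.29% of protein-coding genes, and 4.88% of Runx3 peaks were as far from H3K4me1. Tnfrsf25 (ENSMUSG00000024793, chromosome 4, 151490043 to 151494228, plus strand) encodes DR3, a death-domain receptor that costimulates lymphocytes. The Runx3 peak in its window, at 18824 bp downstream, was 270 bp wide, lay within Espn, had the TSS of Espn as its nearest one and was 4054 bp from H3K4me1. Of all Runx3 peaks, 99.9% were at least as wide as this peak and 78.1% at least as wide as that of Fas.

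In Tnfrsf4, Tnfrsf18, Tnfrsf14 and Tnfrsf1a, H3K4me1 was present without a Runx3 peak, a state shared by 17.3% of protein-coding genes. The distance from the gene to the nearest Runx3 peak was 21085 bp for Tnfrsf4, 33406 bp for Tnfrsf18, 63701 bp for Tnfrsf1a and 95943 bp for Tnfrsf14. Tnfrsf4 and Tnfrsf18, costimulatory receptors of activated lymphocytes, are neighbours 9551 bp apart (chromosome 4, 155387952 to 155390721 and 155400273 to 155403004, both on the plus strand) and share their 4 H3K4me1 peaks. The upstream-most was centred between the genes, 8274 bp downstream of the TSS of Tnfrsf4 and 4047 bp upstream of that of Tnfrsf18. The other 3, at 4497 to 8825 bp from the TSS of Tnfrsf18, lay beyond its end, so neither gene body held an H3K4me1 peak. Tnfrsf14 (chromosome 4, 154296319 to 154302672, minus strand), the receptor for LIGHT, had its 4 peaks 7517 to 15584 bp upstream and none in the gene. Tnfrsf1a (chromosome 6, 125299380 to 125312502, plus strand), the broadly expressed TNF receptor, had an H3K4me1 peak centred 340 bp upstream of its TSS and intronic peaks of 1229 and 3218 bp. The latter was among the widest 0.523% of the H3K4me1 list and the widest at any member.

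Peaks near the TSS were few. Within 1 kb of the TSS, Runx3 was centred at Tnfrsf9 only, 1 of 9 members (11.1%), and this count is close to the 11.3% of protein-coding genes. H3K4me1 was centred within 1 kb of the TSS of Tnfrsf1b, Cd27 and Tnfrsf1a, 3 of 9 members, beside 9.43% of genes. A RUNX motif within 500 bp of the TSS was present in 8 of 9 members and in 86.4% of genes, with none at Tnfrsf1b, 1 at Tnfrsf4, Tnfrsf14 and Tnfrsf1a, 2 at Tnfrsf9 and Tnfrsf18 and 3 at Cd27, Tnfrsf25 and Fas. All 4 members without a Runx3 peak thus had the letters of the motif near the TSS.

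Of the 17 Runx3 peaks, 9 overlapped H3K4me1 (52.9%, 95% Wilson interval 31.0 to 73.8, which covers counting error only), beside 48.4% of all Runx3 peaks. Of the 15 centred more than 1 kb from a protein-coding TSS the share was 60.0% (35.7 to 80.2), beside 57.0% of such peaks in the list, so at this number of peaks the members as a whole could not be told from the list. These 9 peaks belonged to 3 members, Tnfrsf9, Tnfrsf1b and Cd27, and 20.5% of protein-coding genes had such a peak. The median width was 718 bp, and 704 bp in the list.

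**Figure D3:**
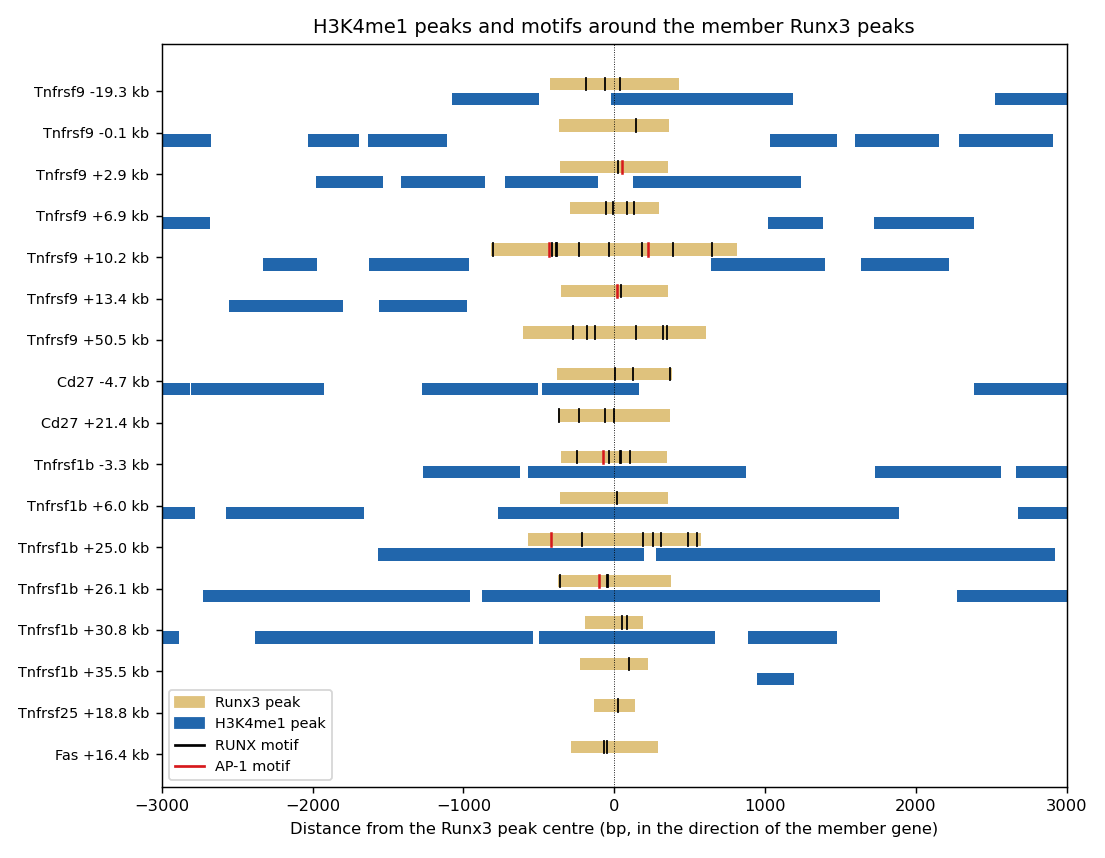
The 17 member Runx3 peaks (tan), named by gene and by the distance of their centre from the TSS, aligned at their centres, with H3K4me1 peaks (blue) within 3 kb and the positions of RUNX motifs (black) and AP-1 motifs (red). H3K4me1 peaks cover the centre in 5 of 6 peaks of Tnfrsf1b and in 1 of 7 of Tnfrsf9. Covered centres occur in 28.2% of all Runx3 peaks and in 33.8% of those more than 1 kb from a protein-coding TSS. No H3K4me1 peak is within 3 kb of the peaks of Fas and Tnfrsf25, the peak downstream of Tnfrsf9 and the peak downstream of Cd27.

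All 17 member peaks contained a RUNX motif (95% Wilson interval 81.6 to 100%), beside 96.0% of all Runx3 peaks and 69.8% of windows of the same widths 10 kb away. They held 53 matches on either strand, 1 to 9 per peak with a median of 3, which was also the median of the list. TGTGGT accounted for 23 and TGTGGC for 22 of the matches, TGCGGT for 6 and TGCGGC for 2. The mix differed by gene. Tnfrsf9 had 14 TGTGGT, 8 TGTGGC and 3 of the TGCGG variants, and Tnfrsf1b 6, 12 and 0. Both TGCGGC matches were in the peak at the Vamp1 promoter, the only RUNX match in the promoter peak of Tnfrsf9 was TGCGGT, and the peak of Fas held 1 TGCGGT and 1 TGTGGC, which the sequence above shows 18 bp apart. TGCGGT was present in 46.1% of Runx3 peaks within 1 kb of a protein-coding TSS and in 16.1% of the others. The RUNX motif nearest to the centre was at a median distance of 37 bp, and 40 bp in the list.

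The number of RUNX motifs was highest in the 3 widest peaks, with 9 in the widest of Tnfrsf9 and 6 each in the widest of Tnfrsf1b and the peak downstream of Tnfrsf9. Per 100 bp these peaks held 0.551, 0.522 and 0.493 motifs, fewer than the peak 3266 bp upstream of Tnfrsf1b (0.708) and that at 6863 bp of Tnfrsf9 (0.677). Of all Runx3 peaks, 1.82% held 9 or more motifs and 9.27% held 6 or more. The stretch of the widest Tnfrsf9 peak printed above holds 4 of its motifs, and that upstream of Tnfrsf1b holds a pair whose letters overlap, 5 bp apart. AP-1 motifs were present in 6 of the 17 peaks (35.3%, 17.3 to 58.7), beside 26.2% of all Runx3 peaks, 29.9% of those more than 1 kb from a TSS and 12.6% of the windows 10 kb away. They were in 3 peaks of Tnfrsf9 and 3 of Tnfrsf1b, which hold 13 of the 17 peaks, and in none of the few others. In 5 of these peaks an AP-1 and a RUNX motif were centred within 100 bp of each other. The spacing ran from 19.5 bp in the widest Tnfrsf9 peak to 53.5 bp in the peak at 26141 bp of Tnfrsf1b. How many of all Runx3 peaks hold such a pair was not counted, so this count is not set against the list. The ETS motif, searched on either strand as AGGAAA, as the variant AGGAAG, with a leading C as CGGAAA and likewise in the form CGGAAG, was present in 14 of 17 peaks (82.4%) and 91.4% of the list, and in 84.6% of the windows. It was absent from the peaks of Fas and Tnfrsf25 and from that at 2946 bp of Tnfrsf9. A match to the NF-kappaB motif was found in 1 member peak, at 13407 bp of Tnfrsf9, with 2 matches, and in 9.88% of the list. The T-box motif AGGTGTGA was found in the Cd27 peak 4737 bp upstream and in the Tnfrsf1b peak at 5993 bp, and in 5.51% of the list.

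Further genes of the pathway were counted in lists by role. Of 19 other receptors of the superfamily, 9 (47.4%) held a Runx3 peak and 13 (68.4%) an H3K4me1 peak, and 6 held neither. Of all protein-coding genes, 41.1% held a Runx3 peak and 51.1% an H3K4me1 peak. The highest count was that of Tnfrsf8 (CD30), with 3 Runx3 and 22 H3K4me1 peaks, of which 1 and 6 were shared with the window of its neighbour Tnfrsf1b. Tnfrsf12a, the TWEAK receptor, had 2 Runx3 peaks, the nearer centred 51 bp from its TSS. Ltbr, the lymphotoxin beta receptor, which lies between Cd27 and Tnfrsf1a, held neither kind of peak.

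Of 18 ligands, 10 (55.6%) held a Runx3 peak and 14 (77.8%) an H3K4me1 peak, beside 41.1% and 51.1% of all protein-coding genes. The counts of ligands and receptors are set side by side. Fasl, the ligand of Fas and an effector of cytotoxic lymphocytes, held 6 Runx3 and 16 H3K4me1 peaks where Fas held 1 and 0, with a Runx3 peak centred 569 bp from its TSS. Tnfsf9, the ligand of CD137, held 0 and 2 where Tnfrsf9 held 7 and 16. Cd70 held 0 and 1 where Cd27 held 2 and 8. Tnfsf14 (LIGHT) held 2 and 7, with a Runx3 peak centred 38 bp from its TSS, where Tnfrsf14 held 0 and 4. Tnf, whose product binds both TNFR1 and TNFR2, held 3 Runx3 and 14 H3K4me1 peaks, and its neighbour Lta 3 and 12, which are partly the same peaks, since the windows of Tnf, Lta and Ltb together held 4 and 17 distinct peaks. Tnfsf10 (TRAIL), a ligand with which NKC kill target cells, held 3 and 5. Among the remaining ligands of members the counts were 0 and 1 at Tnfsf4 (ligand of OX40), 2 and 1 at Tnfsf18 (ligand of GITR) and none at Tnfsf15 (ligand of DR3).

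Among 15 adaptors and effectors, 12 (80.0%) held a Runx3 peak and 13 (86.7%) an H3K4me1 peak, beside 41.1% and 51.1% of protein-coding genes. Runx3 was centred within 1 kb of the TSS in 7 (46.7%), beside 11.3% of protein-coding genes. These 7 were Traf5, Ripk1, Tradd, Birc3, Map3k14, Fadd and Tnfaip3. They include the death-domain adaptors of TNFR1 and Fas (Tradd and Fadd), the kinase of the alternative NF-kappaB route (Map3k14) and the feedback inhibitor A20 (Tnfaip3). Traf1 held 4 Runx3 and 17 H3K4me1 peaks, Traf2 3 and 16, and Traf5 4 and 6, with Runx3 centred 28 bp from its TSS. Traf3, a brake on the alternative route, held 2 and 7. Cflar, the inhibitor of caspase-8 activation at death receptors, held 11 H3K4me1 peaks and no Runx3 peak.

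**Figure D4:**
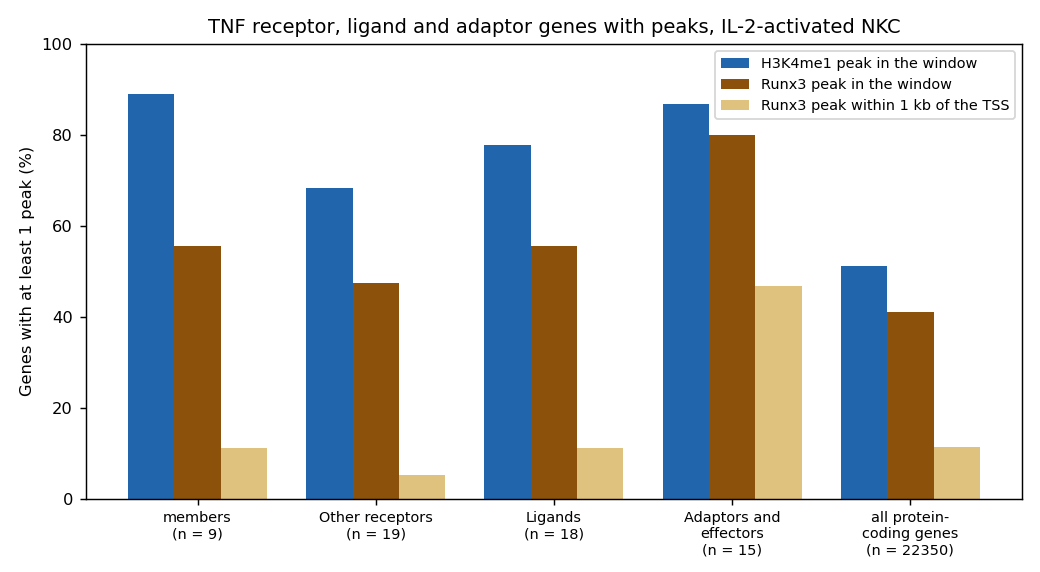
Share of genes (%) with at least 1 H3K4me1 peak (blue) or Runx3 peak (brown) in the gene and its 20 kb flanks, and with a Runx3 peak centred within 1 kb of the TSS (tan), for the 9 members, 3 lists of related genes and all protein-coding genes, each a count without error. Runx3 near the TSS is at 46.7% in adaptors and effectors and at 11.1% in the members, where all protein-coding genes are at 11.3%.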

How the data were processed

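The deposited BED lists hold peak positions in bp on mm9. The authors aligned short reads with ELAND, kept those aligned uniquely and called peaks with MACS against NIS, scaling the larger dataset to the smaller. The files hold no score, NIS track or values per library, so sequencing depth and precision cannot be read from them, and only the arrangement of peaks was compared. The authors report read numbers after filtering for IL-2-activated NKC, which were lower for H3K4me1 than for Runx3. The effect of depth on missing H3K4me1 peaks was not tested. Starts were converted to count from 1. Genes, TSSs (5' ends of GENCODE M1 protein-coding genes) and sequence were those of NCBIM37, which is mm9, on the 19 autosomes and chromosome X. RefSeq promoter sequences of another build were not used here.

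Peaks were counted by overlap of 1 bp with the gene and its 20 kb flanks. Motifs were searched on both strands of whole peaks, and in equally wide flanking windows 10 kb away without Runx3 peaks or unknown bases. Shares have 95% Wilson intervals. The members and gene lists, and the genes named from them, were chosen with earlier results of these data known, so no list was tested. Of the related lists, ligands of members and the genes with the most Runx3 peaks are named, and in addition genes chosen after their values were seen, namely Ltbr, Cflar, Ltb, Tapbpl and the 7 with promoter peaks. Peak counting and motif search were checked on simulated data. Calculations used python 3.11.15, numpy 2.4.6, pandas 2.3.3, scipy 1.17.1, pysam 0.24.0, samtools 1.23.1 and matplotlib 3.10.9. Alternatives were other flanks, joined or wide peaks, the GREAT domain, other overlap and TSS definitions and the central 200 bp.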

Additional observations from a re-analysis of the deposited data

How the results depend on the processing

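No paired analysis was possible because the Runx3 list pools both libraries and no NIS values per library were used. For the same reason no library could be left out. With flanks of 5 kb, Runx3 peaks in the windows numbered 13 at 4 members, since Tnfrsf25 lost its peak (Tnfrsf9 kept 5 and Cd27 1), and 28.8% of all protein-coding genes had a Runx3 peak, while Tnfrsf14 and Tnfrsf25 had no H3K4me1 peak; with 50 kb they numbered 21 at 7 members, since Tnfrsf4 and Tnfrsf18 gained peaks, and 55.4% of genes had one. With only peaks at least as wide as their list's median, a stricter list, 3 members had a Runx3 peak (Tnfrsf9, Tnfrsf1b and Cd27), 32 H3K4me1 peaks remained in the windows and 27.7% of genes had a Runx3 peak. Joining peaks closer than 1 kb left 30 H3K4me1 peaks, 7 each at Tnfrsf9 and Tnfrsf1b, so H3K4me1 counts depend on how regions are split. The GREAT domains gave 19 Runx3 peaks at 5 members and 42.1% of genes, and with all annotated genes in place of protein-coding ones the share was 32.9%. In the central 200 bp, 76.5% of member peaks held a RUNX motif and 77.0% of all Runx3 peaks. The overlap with H3K4me1 ranged from 41.2% (centre inside, beside 28.2% of all Runx3 peaks) to 61.5% (flanks of 5 kb). The promoter peak of Tnfrsf9 remained under both other TSS definitions. Without scores, no height threshold could be tried.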

Other observations

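Fas lies in a long stretch without H3K4me1 peaks. On chromosome 19, from 33299091 to 34548766 in mm9, 1250 kb held no H3K4me1 peak of the list, although 6 Runx3 peaks and 14 protein-coding genes lay within it. Of 34184 stretches between neighbouring H3K4me1 peaks, 387 were at least as long, of which 5 on chromosome 19, and 16 of the 387 held as many Runx3 peaks.

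At Tnfrsf9, GENCODE M1 lists 8 transcript starts. The Runx3 peak centred 13407 bp downstream of the first one had its centre 51 and 30 bp from starts at 150302027 and 150302108, inside the gene, and the centre of the widest peak was 530 bp from the start at 150299415. Whether these starts are used in NKC cannot be read from the peak lists.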
